A study of Mus musculus with 24 samples.

Results

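The 34 genes described here encode the proteins that carry fatty acids through mitochondrial oxidation in the mouse heart, from uptake and activation to the last thiolase step, with neighbouring enzymes of peroxisomal, ketone body, branched-chain and propionyl-CoA metabolism. They were taken by name, with earlier results of these data known. A gene was kept when a probe annotated to it had a detection p-value (the share of negative control probes that read at least as bright) below 0.05 on at least 3 arrays of each strain's signal table. Of the 34 genes, 33 had an annotated probe and 32 were kept with 56 probes, among 9921 genes and 17967 probes of the series that passed the same filter and 45281 probes on the array. Acsl1, an acyl-CoA synthetase of the outer membrane, had no annotated probe. The 1 probe of Ehhadh, a peroxisomal bifunctional enzyme, had raw signals of 90.4 to 165. It met the filter only in C57Bl/6J, with detection on 3 C57Bl/6J and 0 Balb/C arrays. Just inside the filter lay 1 of the 2 kept Hadh probes, with raw signals of 102.9 to 147.5 and detection on 3 C57Bl/6J and 11 Balb/C arrays. The other Hadh probe, whose values are given below, read 92.8 to 202.4 and was detected on 12 and 9 arrays, and the probe used for each other member was detected on all 24.

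Left ventricles of male C57Bl/6J mice and male Balb/C mice were profiled. Mice were wild type or deficient in Bmx, a cytoplasmic tyrosine kinase. They had received AngII (angiotensin II, a pressor hormone) or NaCl, called sham here, by infusion over 2 weeks. The 24 arrays filled 8 groups of 3. Titles call the deficient C57Bl/6J mice KO and the deficient Balb/C mice TK. The sources used here give neither the meaning of these names nor the age of the mice. The labels did not say that replicates were separate animals, so the spread behind each p-value may be technical. Groups of 3 arrays limit the precision. Of 4 Bmx probes only 1 was detected on all 24 arrays, and its sham group means ran from 6.43 ± 0.10 (C57Bl/6J wild type sham) to 6.11 ± 0.11 (KO sham) and from 5.69 ± 0.10 (Balb/C wild type sham) to 5.73 ± 0.10 (TK sham; mean ± SD, n = 3). Where Bmx was altered was not given, so this probe does not check the labels. Median raw signals were 124.2 to 139.8 on the C57Bl/6J arrays and 95.3 to 110.2 on the Balb/C arrays. Of 14 cardiomyocyte markers 13 were kept and detected on every array, while Tnnt2 had no kept probe.

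Long-chain fatty acids are the main fuel of the adult heart. They are bound to coenzyme A in the cytosol, exchanged onto carnitine to cross the inner mitochondrial membrane, and shortened in the matrix by repeated rounds of dehydrogenation, hydration, a further dehydrogenation and thiolytic cleavage, with the electrons passed to ubiquinone and NADH. In pressure overload and heart failure the genes of this pathway are known to be expressed at lower levels, and the nuclear receptors PPAR alpha and the oestrogen-related receptors, with the coactivators PGC-1 alpha and beta, are known activators of many of them.

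After AngII, 22 of 32 genes of the pathway fell in Balb/C wild type mice and 8 in C57Bl/6J wild type mice, while Hadhb, Eci2 and Acadsb rose in Balb/C. With each array scaled to a common median instead of by quantiles, 9 fell and 5 rose in Balb/C wild type and 3 fell in C57Bl/6J wild type. Of all 9921 genes this scaling called 3916 in Balb/C wild type, 93.1% of them higher. In C57Bl/6J wild type it called 458, 47.2% of them higher. The member counts use 1 probe per gene, and those by quantiles include Etfa and Pccb, of which other probes rose in Balb/C. Differences are on the log2 scale ± SE from limma, with n = 3 arrays in each group. P-values were adjusted by the Benjamini-Hochberg method across 9921 genes. A gene is called, or said to rise or fall, at an adjusted p below 0.05. In Balb/C wild type 22 of 32 members fell and 3 rose, where 20.8% and 18.1% of all genes did. The member median was -0.71 and that of all genes -0.07. In Balb/C TK mice 9 fell and 5 rose (6.57% and 7.76% of all genes), with medians of -0.28 and -0.06. In C57Bl/6J wild type 8 fell and 0 rose (4.82% and 4.17% of all genes), with medians of -0.26 and -0.02, and in KO mice 2 fell and 0 rose (1.92% and 2.34%), with medians of -0.11 and -0.02. In either direction 39%, 14.3%, 8.99% and 4.25% of all genes were called in these 4 comparisons. Every member called had AngII and sham arrays that did not overlap. Without regard to calls, groups did not overlap for 23 members on the lower and 3 on the higher side in Balb/C wild type (26.5% and 21.2% of all genes), and for 15 and 6 in TK (21.9% and 14.3%). In C57Bl/6J this held for 16 and 0 in wild type (17% and 13.4%) and for 12 and 5 in KO mice (14.6% and 13%).

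**Figure D1:**
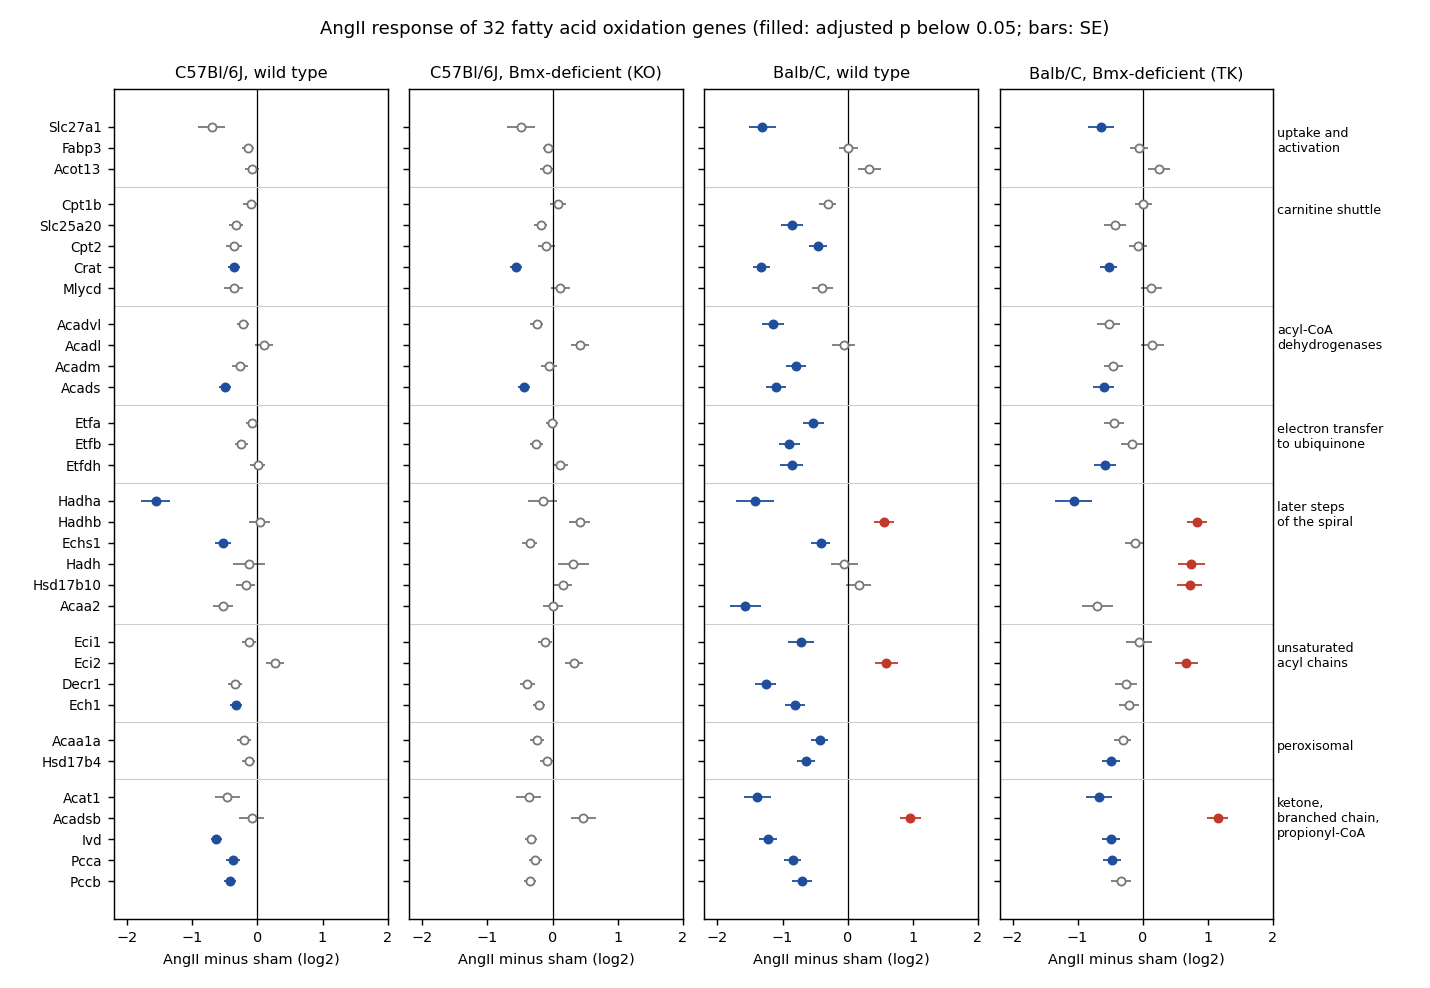
Log2 difference of AngII minus sham (x axis, bars are SE) for 32 genes (y axis, grouped by role) in 4 panels by strain and genotype, with filled points at an adjusted p below 0.05. In Balb/C wild type 22 genes are filled on the lower side and 3 on the higher side; scaled to a common median, Cpt2, Echs1 and Acaa1a change sign there.

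The direction of the balance between all genes depended on the scaling. With each array set to a common median over all probes in place of quantile normalization, the median difference of all genes moved by 0.41 in Balb/C wild type, and 93.1% of the 3916 calls were on the higher side in place of 46.5% of 3867. In TK mice the higher share moved from 54.1% to 81% and in KO mice from 55% to 86.6%, with the all-gene median of KO moving by 0.11. A median scaling moves all genes of an array by 1 constant, so the distance of the members from all genes is the same under either median and is compared with quantiles only. The member median minus the all-gene median in Balb/C wild type was -0.64 with quantiles and -0.54 with the common median, in TK mice -0.22 and -0.20, in C57Bl/6J wild type -0.23 and -0.21, and in KO mice -0.08 and -0.12. Scaled to the median of the kept probes, a setting chosen after seeing the data, 37.5% of 4257 Balb/C wild type calls were higher and 3 members rose and 22 fell. With the common median the members that fell in Balb/C wild type were Acaa2, Acads, Acadvl, Acat1, Crat, Decr1, Hadha, Ivd and Slc27a1. The calls of Slc25a20, Cpt2, Acadm, Etfa, Etfb, Etfdh, Echs1, Eci1, Ech1, Acaa1a, Hsd17b4, Pcca and Pccb were lost there, and Acot13 and Hsd17b10 were called higher beside Hadhb, Eci2 and Acadsb. In TK mice the common median left Acadsb and Hadhb higher and Hadha lower, in C57Bl/6J wild type Acads, Hadha and Ivd lower, and in KO mice 0 members called.

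Markers of other cells moved in the same comparisons. Over all genes 18.1% rose and 20.8% fell in Balb/C wild type, and 7.76% and 6.57% in TK. In C57Bl/6J wild type the shares were 4.17% and 4.82%, and in KO mice 2.34% and 1.92%. Of 13 kept fibroblast markers 11 rose in Balb/C wild type, where 1 fell, and 4 rose in TK, 8 in C57Bl/6J wild type and 8 in KO mice, and their summed linear signal went from 16463 to 19443 units in Balb/C wild type sham to 28559 to 34337 under AngII. In TK mice it was 18320 to 19706 in sham and 20285 to 23865 under AngII. Of 11 kept macrophage markers 11, 5, 5 and 4 rose, in the same order. Their Balb/C sums were 1632 to 2461 in wild type sham and 4236 to 5430 under AngII, and 2533 to 3767 and 2534 to 4238 in TK mice. Postn, Cd68, Fcgr1 and Itgam had no kept probe. The 13 cardiomyocyte markers summed to 186040 to 213714 in the 4 Balb/C groups, with 2 higher and 1 lower in wild type and 2 higher in TK, and to 341054 to 378614 in the C57Bl/6J groups, with 0 called. Of 12 endothelial markers 8 fell in Balb/C wild type, 5 in TK and 0 in C57Bl/6J. Of 3 kept erythroid markers 2 rose in C57Bl/6J wild type, 1 in KO, 0 in Balb/C wild type and 2 in TK, and the 1 kept adipocyte marker was called in 0. Of 10 hypertrophy markers 8 rose and 1 fell in Balb/C wild type, 5 rose in TK, 9 in C57Bl/6J wild type and 7 in KO mice. The part of other cells in the results was not tested, and in ventricle RNA fewer cells of a type and less RNA per cell cannot be told apart.

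**Figure D2:**
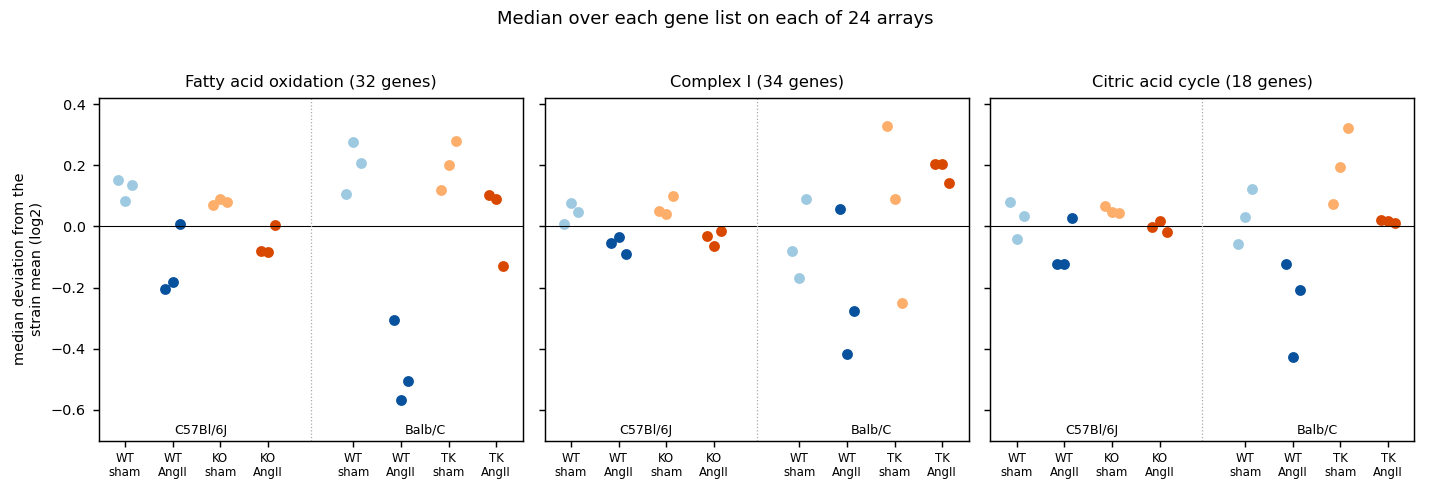
Median over each gene list of the deviation from the gene's strain mean (log2, y axis) on each of 24 arrays by group (x axis) for fatty acid oxidation, complex I and citric acid cycle genes. The Balb/C wild type AngII arrays read -0.31, -0.57 and -0.50 for fatty acid oxidation, below all other Balb/C arrays, of which the next lowest is a TK AngII array at -0.13; levels are quantile-normalized within a strain, and another scaling moves whole arrays.

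Uptake and activation was represented by Slc27a1, Fabp3 and Acot13. Slc27a1, the fatty acid transport protein FATP1, read 8.12, 8.35 and 8.21 in Balb/C wild type sham and 7.28, 6.81 and 6.65 under AngII. Slc27a1 in TK mice read 8.5, 8.35 and 8.32 in sham and 8.11, 7.9 and 7.23 under AngII. Both AngII groups lay below their sham arrays, and it fell in wild type (-1.31 ± 0.20, adjusted p = 0.000167) and in TK mice (-0.64 ± 0.20, adjusted p = 0.0467). Slc27a1 in C57Bl/6J wild type read 9.54, 9.16 and 9.37 in sham and 8.24, 8.49 and 9.22 under AngII. Slc27a1 in KO mice read 9.37, 9.15 and 9.28 in sham and 8.6, 8.76 and 8.99 under AngII. Neither difference passed (-0.71 ± 0.21, adjusted p = 0.0553 and -0.49 ± 0.21, adjusted p = 0.19). Fabp3, the heart fatty acid binding protein, and Acot13, a thioesterase, passed in 0 comparisons, with AngII differences between -0.15 and 0.34.

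The carnitine shuttle held the member called most often. Crat, carnitine acetyltransferase, which exchanges short acyl groups between carnitine and coenzyme A, read 11, 10.92 and 11 in Balb/C wild type sham and 9.72, 9.76 and 9.48 under AngII. Crat in TK mice read 10.68, 10.53 and 10.64 in sham and 10.15, 10.2 and 9.94 under AngII. Crat fell in wild type (-1.32 ± 0.13, adjusted p = 3.02e-06) and in TK mice (-0.52 ± 0.13, adjusted p = 0.0138). Crat in C57Bl/6J wild type read 11.57, 11.69 and 11.68 in sham and 11.36, 11.13 and 11.35 under AngII. Crat in KO mice read 11.69, 11.61 and 11.66 in sham and 11.11, 11.14 and 11.03 under AngII. Crat fell in wild type (-0.36 ± 0.10, adjusted p = 0.0363) and in KO mice (-0.56 ± 0.10, adjusted p = 0.0142), so that AngII arrays were below sham arrays in all 4 comparisons. The other 2 Crat probes fell in Balb/C wild type (-0.95 ± 0.17 and -0.74 ± 0.17) and stood at 0.06 ± 0.17 and 0.22 ± 0.17 in TK and at 0.11 ± 0.17 and 0.23 ± 0.23 in KO mice, where they were not called.

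Slc25a20, the carnitine-acylcarnitine carrier of the inner membrane, read 11.23, 11.46 and 11.44 in Balb/C wild type sham and 10.82, 10.11 and 10.64 under AngII. Slc25a20 in TK mice read 11.47, 11.57 and 11.78 in sham and 11.27, 11.26 and 11.01 under AngII. Slc25a20 fell in Balb/C wild type (-0.85 ± 0.17, adjusted p = 0.00119), and all TK AngII arrays lay above all wild type AngII arrays. Slc25a20 in C57Bl/6J wild type read 13.07, 12.99 and 12.97 in sham and 12.67, 12.55 and 12.81 under AngII. Slc25a20 in KO mice read 12.81, 13 and 13.01 in sham and 12.8, 12.74 and 12.73 under AngII. Slc25a20 stood at -0.33 ± 0.10, adjusted p = 0.0614 in wild type. Cpt2, which returns acyl groups to coenzyme A on the matrix side, read 12.14, 12.22 and 12.12 in Balb/C wild type sham and 11.94, 11.74 and 11.46 under AngII. Cpt2 in TK mice read 11.98, 12.09 and 12.28 in sham and 11.99, 12.09 and 12.06 under AngII. Cpt2 fell in Balb/C wild type (-0.45 ± 0.14, adjusted p = 0.0184), but scaled to a common median it stood at 0.012. Its 3 probes differed in size there, at -0.45 ± 0.14, -0.33 ± 0.17 and -1.34 ± 0.14, and the last also fell in TK mice (-0.74 ± 0.14). Cpt2 in C57Bl/6J wild type read 12.47, 12.63 and 12.47 in sham and 11.99, 12.11 and 12.4 under AngII. Cpt2 in KO mice read 12.59, 12.61 and 12.45 in sham and 12.29, 12.47 and 12.61 under AngII. Cpt2 stood at -0.36 ± 0.12, adjusted p = 0.0939 in wild type.

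Cpt1b, the muscle form of the rate-limiting carnitine palmitoyltransferase, was not called on its chosen probe, the one with the highest mean signal of a gene, which gives all values here unless another is named. It read 12.1, 12.05 and 12.16 in Balb/C wild type sham and 11.91, 11.84 and 11.63 under AngII. Cpt1b in TK mice read 11.82, 11.89 and 12.08 in sham and 12.05, 11.89 and 11.88 under AngII. Here, wild type AngII arrays lay below sham arrays (-0.31 ± 0.13, adjusted p = 0.0694) and TK arrays overlapped (0.01 ± 0.13, adjusted p = 0.968). Its other probe fell in Balb/C wild type (-0.84 ± 0.14, adjusted p = 0.000304 over all probes). Cpt1b in C57Bl/6J wild type read 12.55, 12.45 and 12.54 in sham and 12.2, 12.51 and 12.5 under AngII. Cpt1b in KO mice read 12.49, 12.57 and 12.28 in sham and 12.39, 12.51 and 12.69 under AngII. Cpt1b stood at -0.11 ± 0.12, adjusted p = 0.624 and 0.08 ± 0.12, adjusted p = 0.732. Mlycd, malonyl-CoA decarboxylase, which removes the inhibitor of Cpt1b, stood at -0.39 ± 0.16 in Balb/C wild type and was called in 0 comparisons.

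The acyl-CoA dehydrogenases, which start each round of the spiral, are described by chain length. Acadvl, Acadm and Acads fell in Balb/C wild type, Acadl was not called on its chosen probe, and the branched-chain members Ivd and Acadsb, described below, fell and rose respectively. Acadvl, for very long chains, read 12.7, 12.8 and 12.93 in Balb/C wild type sham and 11.95, 11.6 and 11.44 under AngII. Acadvl in TK mice read 12.5, 12.66 and 12.87 in sham and 12.4, 12.22 and 11.84 under AngII. Acadvl fell in Balb/C wild type (-1.15 ± 0.17, adjusted p = 0.000114), with -0.52 ± 0.17, adjusted p = 0.0514 in TK mice. Acadvl in C57Bl/6J wild type read 13.27, 13.31 and 13.3 in sham and 12.96, 13.12 and 13.12 under AngII. Acadvl in KO mice read 13.4, 13.27 and 13.37 in sham and 13.02, 13.04 and 13.24 under AngII. Acadvl stood at -0.22 ± 0.10, adjusted p = 0.17 in wild type. Acadm, for medium chains, read 13.97, 14.15 and 14.05 in Balb/C wild type sham and 13.34, 13.09 and 13.36 under AngII. Acadm in TK mice read 13.81, 13.98 and 14.28 in sham and 13.69, 13.65 and 13.39 under AngII. Acadm fell in Balb/C wild type (-0.79 ± 0.15, adjusted p = 0.000723), with -0.45 ± 0.15, adjusted p = 0.0547 in TK mice. Acadm in C57Bl/6J wild type read 15.13, 14.81 and 15.17 in sham and 14.67, 14.76 and 14.88 under AngII. Acadm in KO mice read 14.7, 14.95 and 14.92 in sham and 14.75, 14.72 and 14.95 under AngII. AngII and sham arrays of Acadm overlapped.

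Acads, for short chains, read 11.36, 11.58 and 11.32 in Balb/C wild type sham and 10.41, 10.37 and 10.17 under AngII. Acads in TK mice read 10.99, 11 and 11.55 in sham and 10.7, 10.55 and 10.48 under AngII. Acads fell in both genotypes of Balb/C (-1.10 ± 0.16, adjusted p = 8.7e-05 in wild type and -0.60 ± 0.16, adjusted p = 0.0204 in TK). Acads in C57Bl/6J wild type read 10.68, 10.74 and 10.74 in sham and 10.32, 10.14 and 10.19 under AngII. Acads in KO mice read 10.66, 10.54 and 10.57 in sham and 10.21, 10.18 and 10.06 under AngII. Acads also fell in both of these (-0.50 ± 0.09, adjusted p = 0.0068 and -0.44 ± 0.09, adjusted p = 0.0257). Its other probe fell in both Balb/C comparisons (-1.25 ± 0.17 and -0.61 ± 0.17) and stood at -0.04 ± 0.12 in C57Bl/6J wild type. Acadl, the long-chain enzyme of the mouse, read 8.92, 8.85 and 9.12 in Balb/C wild type sham and 8.84, 8.79 and 9.09 under AngII. Acadl in TK mice read 8.93, 9.08 and 9.25 in sham and 9.4, 9.5 and 8.81 under AngII. These groups overlapped (-0.06 ± 0.17, adjusted p = 0.814 and 0.15 ± 0.17, adjusted p = 0.602). Acadl in C57Bl/6J wild type read 11.91, 11.4 and 11.78 in sham and 11.77, 11.79 and 11.85 under AngII. Acadl in KO mice read 11.56, 11.71 and 11.57 in sham and 11.81, 12.15 and 12.15 under AngII. For Acadl KO AngII arrays lay above KO sham arrays (0.42 ± 0.14, adjusted p = 0.098). Of its other 2 probes 1, detected on 6 of 12 C57Bl/6J arrays, fell in C57Bl/6J wild type (-0.87 ± 0.20). The remaining Acadl probe was brighter in Balb/C than the chosen probe (mean 10.02 against 9.05), and its differences are not given here. The Balb/C values of Acadl above therefore hold for the chosen probe only.

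Only Acadm held 1 of the motifs searched in the 250 bases before the RefSeq start (build GRCm38.p6). The motifs were AAGGTCA, the extended site bound by oestrogen-related receptors, and AGGNCA repeated after 1 base, the direct repeat bound by PPAR with RXR, on both strands. Promoters were listed for 25 of the 32 members. AAGGTCA lay in 1 of them (4%) and in 4.7% of 27025 genes, and the direct repeat in 0 and in 0.4%. The Acadm window lies at chr3:153944644-153944893 on the minus strand, and is shown because its match, in capitals at its far end and in reverse complement, is the only one.
Acadm: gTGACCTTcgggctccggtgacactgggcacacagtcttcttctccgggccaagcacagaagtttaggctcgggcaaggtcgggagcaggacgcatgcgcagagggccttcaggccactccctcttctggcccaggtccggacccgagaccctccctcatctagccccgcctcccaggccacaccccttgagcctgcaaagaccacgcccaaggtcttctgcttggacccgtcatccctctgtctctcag

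Electron transfer from these dehydrogenases to ubiquinone runs through Etfa and Etfb, the subunits of the electron transfer flavoprotein, and Etfdh, its dehydrogenase. Etfb read 13.17, 13.39 and 13.32 in Balb/C wild type sham and 12.77, 12.04 and 12.39 under AngII. Etfb in TK mice read 13.65, 13.59 and 13.29 in sham and 13.43, 13.32 and 13.26 under AngII. Etfb fell in wild type (-0.89 ± 0.17, adjusted p = 0.000735) but was not called in TK (-0.17 ± 0.17, adjusted p = 0.537). Etfb in C57Bl/6J wild type read 14.29, 14.36 and 14.4 in sham and 14.04, 14.02 and 14.26 under AngII. Etfb in KO mice read 14.3, 14.22 and 14.4 in sham and 14.13, 13.92 and 14.14 under AngII. Etfb stood at -0.25 ± 0.11 in wild type and -0.25 ± 0.11 in KO mice, neither called. Etfdh read 11.48, 11.61 and 11.73 in Balb/C wild type sham and 10.89, 10.54 and 10.8 under AngII. Etfdh in TK mice read 11.23, 11.59 and 11.96 in sham and 11.13, 11.03 and 10.88 under AngII. Etfdh fell in wild type (-0.86 ± 0.17, adjusted p = 0.00107) and TK mice (-0.58 ± 0.17, adjusted p = 0.0342). Etfdh in C57Bl/6J wild type read 12.58, 12.32 and 12.52 in sham and 12.46, 12.38 and 12.6 under AngII. Etfdh in KO mice read 12.34, 12.44 and 12.4 in sham and 12.41, 12.41 and 12.7 under AngII. AngII and sham arrays of Etfdh overlapped. Etfdh had 4 probes, of which 3 fell in Balb/C wild type, and 1 of these also fell in C57Bl/6J wild type (-0.92 ± 0.24).

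Etfa gave opposite answers by probe. The chosen probe read 13.46, 13.84 and 13.8 in Balb/C wild type sham and 13.19, 12.99 and 13.35 under AngII. Etfa in TK mice read 13.74, 13.84 and 14.12 in sham and 13.64, 13.5 and 13.23 under AngII. Etfa fell in Balb/C wild type (-0.52 ± 0.16, adjusted p = 0.0171). The other 2 probes rose there by 0.55 ± 0.19 and 0.53 ± 0.20, and in TK mice by 0.58 ± 0.19 and 0.62 ± 0.20, where the chosen probe stood at -0.44 ± 0.16. The direction of Etfa in Balb/C was therefore not settled. Etfa in C57Bl/6J wild type read 14.69, 14.57 and 14.76 in sham and 14.5, 14.56 and 14.7 under AngII. Etfa in KO mice read 14.65, 14.69 and 14.69 in sham and 14.65, 14.69 and 14.65 under AngII. Etfa stood at -0.08 ± 0.09 in wild type.

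The probes of the 2 subunits of the trifunctional protein, 1 for each, moved in opposite directions in Balb/C. Hadha encodes the alpha subunit, with the hydratase and hydroxyacyl dehydrogenase activities for long chains, and Hadhb the beta subunit, the long-chain thiolase. Hadha read 7.63, 7.11 and 7.53 in Balb/C wild type sham and 6.32, 5.39 and 6.28 under AngII. Hadha in TK mice read 7.91, 8.22 and 7.24 in sham and 6.99, 7.03 and 6.16 under AngII. Hadha fell in wild type (-1.42 ± 0.29, adjusted p = 0.00133) and TK mice (-1.06 ± 0.29, adjusted p = 0.0239). Hadhb read 11.49, 11.44 and 11.75 in Balb/C wild type sham and 12.38, 11.92 and 12.08 under AngII. Hadhb in TK mice read 11.52, 11.44 and 11.44 in sham and 12.04, 12.43 and 12.45 under AngII. Hadhb rose in both (0.57 ± 0.16, adjusted p = 0.00933 and 0.84 ± 0.16, adjusted p = 0.0023). Every AngII array was thus below every sham array of its genotype for Hadha and above it for Hadhb. Hadha in C57Bl/6J wild type read 8.44, 9.32 and 8.77 in sham and 7.28, 7.63 and 6.91 under AngII. Hadha in KO mice read 8.56, 8.77 and 8.3 in sham and 8.41, 8.27 and 8.51 under AngII. Hadha fell in wild type (-1.57 ± 0.22, adjusted p = 0.00174), while the KO arrays overlapped (-0.15 ± 0.22, adjusted p = 0.733). Hadhb in C57Bl/6J wild type read 12.91, 12.95 and 13.16 in sham and 12.77, 13.12 and 13.23 under AngII. Hadhb in KO mice read 12.88, 13.13 and 12.71 in sham and 13.23, 13.18 and 13.56 under AngII. Hadhb stood at 0.03 ± 0.16, adjusted p = 0.921 and 0.42 ± 0.16, adjusted p = 0.136. Each subunit had 1 probe, so no second probe bears on these values. The raw signal of the Hadha probe was 128.5 to 358.9 in Balb/C, where array medians were 95.3 to 110.2. Its lowest values were thus not far above background. Its mean log2 signal there was 6.98, against 11.87 for the Hadhb probe.

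Both genes start from a shared stretch of chromosome 5, in opposite directions. Hadha begins on the minus strand at 30154980 and Hadhb begins on the plus strand at 30155253, with 272 bases between the starts. The 250 bases before each start overlap in 228 bases, in capitals below, at chr5:30155003-30155230. The window of Hadhb, chr5:30155003-30155252 on the plus strand (RefSeq, GRCm38.p6), is shown because it serves as the upstream sequence of the pair with opposite responses, and neither motif named above is in it.
Hadhb: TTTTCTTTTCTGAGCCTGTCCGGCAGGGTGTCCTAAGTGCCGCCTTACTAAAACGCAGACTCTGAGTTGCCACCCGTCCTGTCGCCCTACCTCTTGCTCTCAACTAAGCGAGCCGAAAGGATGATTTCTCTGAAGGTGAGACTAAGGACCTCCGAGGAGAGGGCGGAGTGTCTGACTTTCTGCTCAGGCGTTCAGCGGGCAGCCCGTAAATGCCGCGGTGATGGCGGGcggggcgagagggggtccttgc

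**Figure D3:**
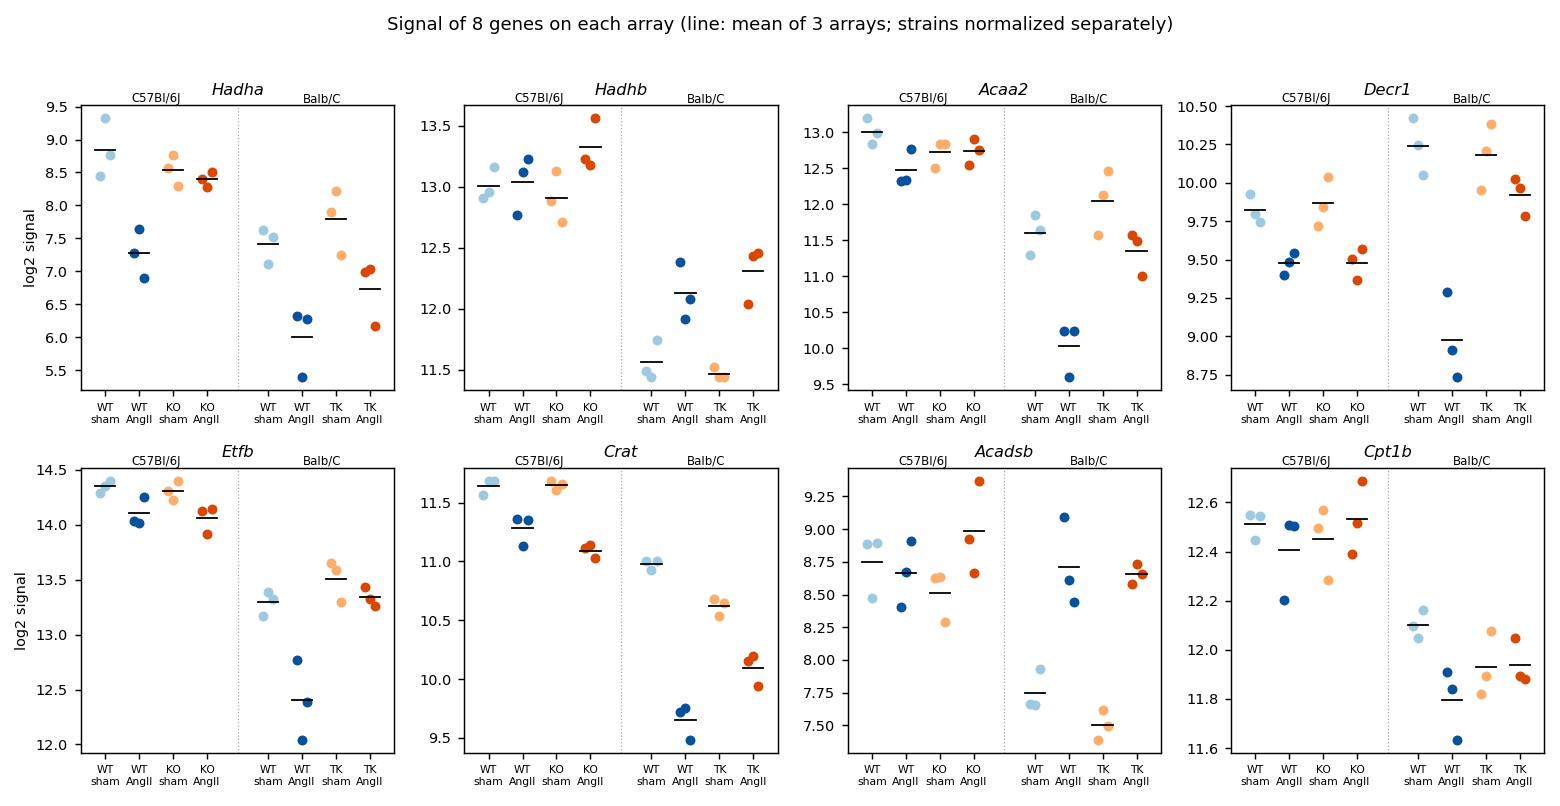
Normalized log2 signal (y axis) of 8 genes on each array by group (x axis), with the mean of 3 arrays as a line; the strains were normalized separately, so heights are compared within a strain. In Balb/C, Hadha is lower and Hadhb higher in both AngII groups, and Acaa2, Decr1 and Etfb are lowest in wild type AngII arrays with TK AngII arrays above them; no called difference of these genes changes sign under scaling to a common median.

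Later steps of the spiral were mixed. Acaa2, the mitochondrial thiolase for medium chains, read 11.29, 11.86 and 11.65 in Balb/C wild type sham and 10.24, 9.59 and 10.25 under AngII. Acaa2 in TK mice read 11.57, 12.13 and 12.46 in sham and 11.57, 11.49 and 11 under AngII. Acaa2 fell in Balb/C wild type (-1.57 ± 0.24, adjusted p = 0.00013), the lowest difference among the members there, with -0.69 ± 0.24, adjusted p = 0.0633 in TK mice. Acaa2 in C57Bl/6J wild type read 13.19, 12.84 and 12.99 in sham and 12.33, 12.34 and 12.76 under AngII. Acaa2 in KO mice read 12.5, 12.84 and 12.84 in sham and 12.54, 12.91 and 12.75 under AngII. Acaa2 stood at -0.53 ± 0.16, adjusted p = 0.0517 in wild type. Echs1, the short-chain hydratase, read 12.18, 12.46 and 12.21 in Balb/C wild type sham and 12.12, 11.71 and 11.78 under AngII. Echs1 in TK mice read 12.01, 12.24 and 12.36 in sham and 12.11, 12.13 and 12.02 under AngII. Echs1 fell in wild type (-0.41 ± 0.15, adjusted p = 0.0347), but scaled to a common median this value was 0.064. Echs1 in C57Bl/6J wild type read 12.38, 12.33 and 12.24 in sham and 11.55, 11.85 and 11.96 under AngII. Echs1 in KO mice read 12.3, 12.2 and 12.2 in sham and 11.8, 11.82 and 12.01 under AngII. Echs1 fell in wild type there too (-0.53 ± 0.12, adjusted p = 0.016).

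Hadh, the medium- and short-chain hydroxyacyl dehydrogenase, was near background, and its chosen probe read 4.72, 4.94 and 5.23 in Balb/C wild type sham and 5.25, 4.64 and 4.86 under AngII. Hadh in TK mice read 4.32, 4.91 and 5.08 in sham and 5.66, 5.32 and 5.57 under AngII. Hadh rose in TK mice (0.75 ± 0.21, adjusted p = 0.0249) and stood at -0.05 ± 0.21 in wild type, while its other probe fell in wild type (-0.73 ± 0.18) and stood at 0.02 ± 0.18 in TK. Hadh in C57Bl/6J wild type read 6.36, 5.46 and 6.08 in sham and 5.76, 5.41 and 6.33 under AngII. Hadh in KO mice read 5.72, 5.85 and 5.5 in sham and 5.92, 5.89 and 6.24 under AngII. Hadh was called in neither genotype of C57Bl/6J. Hsd17b10, a short-chain dehydrogenase of fatty acid and isoleucine breakdown, read 10.33, 10.4 and 10.68 in Balb/C wild type sham and 11.1, 10.31 and 10.52 under AngII. Hsd17b10 in TK mice read 10.85, 10.74 and 10.54 in sham and 11.69, 11.39 and 11.22 under AngII. Hsd17b10 rose in TK mice (0.72 ± 0.19, adjusted p = 0.0199), with 0.17 ± 0.19, adjusted p = 0.502 in wild type. Hsd17b10 in C57Bl/6J wild type read 11.02, 11.06 and 11.56 in sham and 11, 10.83 and 11.25 under AngII. Hsd17b10 in KO mice read 11.2, 11.27 and 11.15 in sham and 11.35, 11.34 and 11.41 under AngII. Hsd17b10 was called in neither genotype.

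Enzymes for unsaturated chains included 3 that fell and 1 that rose in Balb/C wild type. Decr1, the dienoyl-CoA reductase, read 10.42, 10.25 and 10.05 in Balb/C wild type sham and 9.29, 8.91 and 8.73 under AngII. Decr1 in TK mice read 9.95, 10.21 and 10.38 in sham and 10.02, 9.96 and 9.78 under AngII. Decr1 fell in wild type (-1.26 ± 0.17, adjusted p = 4.22e-05), while TK arrays overlapped (-0.26 ± 0.17, adjusted p = 0.318). Decr1 in C57Bl/6J wild type read 9.92, 9.79 and 9.75 in sham and 9.4, 9.49 and 9.54 under AngII. Decr1 in KO mice read 9.72, 9.84 and 10.04 in sham and 9.5, 9.37 and 9.57 under AngII. All AngII arrays lay below sham without a call (-0.34 ± 0.11, adjusted p = 0.0685 and -0.39 ± 0.11, adjusted p = 0.0649). Ech1, the dienoyl-CoA isomerase, read 13.93, 13.98 and 13.72 in Balb/C wild type sham and 13.38, 12.78 and 13.03 under AngII. Ech1 in TK mice read 13.89, 14.04 and 14.1 in sham and 13.79, 13.89 and 13.72 under AngII. Ech1 fell in Balb/C wild type (-0.81 ± 0.15, adjusted p = 0.000707). Ech1 in C57Bl/6J wild type read 14.24, 14.4 and 14.47 in sham and 13.98, 13.99 and 14.13 under AngII. Ech1 in KO mice read 14.22, 14.3 and 14.3 in sham and 14.05, 14.07 and 14.1 under AngII. Ech1 fell in wild type (-0.34 ± 0.09, adjusted p = 0.0455).

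Eci1 and Eci2 are enoyl-CoA isomerases, of which Eci2 is also found in peroxisomes. Eci1 read 11.69, 11.83 and 11.92 in Balb/C wild type sham and 11.61, 10.53 and 11.15 under AngII. Eci1 in TK mice read 12.13, 12.15 and 12.05 in sham and 12.13, 12.04 and 12 under AngII. Eci1 fell in Balb/C wild type (-0.72 ± 0.20, adjusted p = 0.00976), with -0.05 ± 0.20 in TK. Eci1 in C57Bl/6J wild type read 13.08, 12.74 and 12.81 in sham and 12.65, 12.74 and 12.86 under AngII. Eci1 in KO mice read 12.99, 12.79 and 12.94 in sham and 12.79, 12.77 and 12.8 under AngII. Eci1 was called in neither genotype of C57Bl/6J. Eci2 moved the other way and read 8.36, 8.4 and 8.59 in Balb/C wild type sham and 9.48, 8.83 and 8.83 under AngII. Eci2 in TK mice read 8.43, 8.76 and 8.83 in sham and 9.45, 9.22 and 9.36 under AngII. Eci2 rose in Balb/C wild type (0.59 ± 0.18, adjusted p = 0.0143) and TK mice (0.67 ± 0.18, adjusted p = 0.0197). Eci2 in C57Bl/6J wild type read 9.54, 9.38 and 9.56 in sham and 9.53, 9.91 and 9.86 under AngII. Eci2 in KO mice read 9.67, 10.01 and 9.53 in sham and 9.95, 10.09 and 10.15 under AngII. Eci2 stood at 0.27 ± 0.14 and 0.33 ± 0.14, neither called.

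Among the peroxisomal members, Acaa1a, a thiolase, read 11.51, 11.5 and 11.43 in Balb/C wild type sham and 11.22, 11.05 and 10.89 under AngII. Acaa1a in TK mice read 11.25, 11.39 and 11.42 in sham and 11.04, 11.16 and 10.94 under AngII. Acaa1a fell in Balb/C wild type (-0.43 ± 0.13, adjusted p = 0.0152); scaled to a common median it stood at 0.076. Acaa1a in C57Bl/6J wild type read 12.04, 12.01 and 11.91 in sham and 11.79, 11.69 and 11.87 under AngII. Acaa1a in KO mice read 12.01, 11.95 and 12.13 in sham and 11.76, 11.96 and 11.67 under AngII. Acaa1a was called in neither genotype. Hsd17b4, the D-bifunctional protein, read 11.67, 11.74 and 11.58 in Balb/C wild type sham and 11.2, 11.09 and 10.79 under AngII. Hsd17b4 in TK mice read 11.51, 11.51 and 11.74 in sham and 11.23, 11.01 and 11.08 under AngII. Hsd17b4 fell in wild type (-0.64 ± 0.14, adjusted p = 0.00218) and in TK mice (-0.48 ± 0.14, adjusted p = 0.0307). Hsd17b4 in C57Bl/6J wild type read 11.7, 11.49 and 11.61 in sham and 11.5, 11.37 and 11.52 under AngII. Hsd17b4 in KO mice read 11.66, 11.39 and 11.56 in sham and 11.48, 11.41 and 11.45 under AngII. Hsd17b4 was called in neither genotype.

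All 5 neighbouring enzymes were called in Balb/C wild type, 4 lower and 1 higher, where 20.8% and 18.1% of all genes were. The lower calls of Pcca and Pccb, described below, were lost with the common median, and the other Pccb probe rose. Acat1, the acetoacetyl-CoA thiolase of ketone body use, read 7.41, 8.05 and 7.23 in Balb/C wild type sham and 6.39, 6.23 and 5.91 under AngII. Acat1 in TK mice read 7.73, 7.63 and 8.13 in sham and 7.31, 6.99 and 7.19 under AngII. Acat1 fell in Balb/C wild type (-1.39 ± 0.20, adjusted p = 0.000105) and TK mice (-0.67 ± 0.20, adjusted p = 0.039). Acat1 in C57Bl/6J wild type read 7.54, 7.06 and 7.22 in sham and 6.42, 6.92 and 7.09 under AngII. Acat1 in KO mice read 7.12, 7.44 and 7.43 in sham and 6.87, 6.77 and 7.26 under AngII. The AngII and sham arrays of Acat1 overlapped. Ivd, isovaleryl-CoA dehydrogenase of leucine breakdown, read 11.62, 11.61 and 11.47 in Balb/C wild type sham and 10.48, 10.34 and 10.23 under AngII. Ivd in TK mice read 11.19, 11.21 and 11.47 in sham and 10.97, 10.84 and 10.6 under AngII. Ivd fell in wild type (-1.22 ± 0.14, adjusted p = 1.23e-05) and TK (-0.49 ± 0.14, adjusted p = 0.0284). Ivd in C57Bl/6J wild type read 12.32, 12.27 and 12.29 in sham and 11.58, 11.75 and 11.66 under AngII. Ivd in KO mice read 12.16, 12.19 and 12.18 in sham and 11.88, 11.73 and 11.93 under AngII. All AngII arrays lay below sham arrays, and it fell in wild type (-0.63 ± 0.09, adjusted p = 0.0019), with -0.33 ± 0.09, adjusted p = 0.0599 in KO mice.

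Pcca and Pccb are the subunits of propionyl-CoA carboxylase. Pcca read 10.21, 10.17 and 9.99 in Balb/C wild type sham and 9.45, 9.19 and 9.19 under AngII. Pcca in TK mice read 10.06, 9.96 and 10.17 in sham and 9.7, 9.69 and 9.4 under AngII. Pcca fell in wild type (-0.85 ± 0.14, adjusted p = 0.000224) and TK (-0.47 ± 0.14, adjusted p = 0.0324). Pcca in C57Bl/6J wild type read 10.24, 10.08 and 10.06 in sham and 9.75, 9.67 and 9.84 under AngII. Pcca in KO mice read 10.05, 9.87 and 10.09 in sham and 9.83, 9.61 and 9.78 under AngII. Pcca fell in wild type (-0.38 ± 0.11, adjusted p = 0.0452), with -0.26 ± 0.11, adjusted p = 0.159 in KO mice. Pccb read 9.31, 9.4 and 9.62 in Balb/C wild type sham and 8.94, 8.51 and 8.77 under AngII. Pccb in TK mice read 9.57, 9.58 and 9.52 in sham and 9.36, 9.39 and 8.93 under AngII. The chosen probe fell in Balb/C wild type (-0.70 ± 0.16, adjusted p = 0.00234), but the other probe rose in wild type (0.78 ± 0.14) and TK (0.96 ± 0.14). Pccb in C57Bl/6J wild type read 10.41, 10.53 and 10.38 in sham and 9.97, 10.03 and 10.05 under AngII. Pccb in KO mice read 10.45, 10.43 and 10.6 in sham and 10.18, 10.09 and 10.17 under AngII. The chosen probe fell in wild type (-0.42 ± 0.09, adjusted p = 0.015), and the other rose in KO mice (0.63 ± 0.14), so the direction of Pccb was not settled.

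Acadsb, the dehydrogenase for short branched chains from isoleucine, had the largest rise among the members in Balb/C. It read 7.66, 7.65 and 7.93 in Balb/C wild type sham and 9.09, 8.61 and 8.44 under AngII. Acadsb in TK mice read 7.39, 7.62 and 7.5 in sham and 8.58, 8.73 and 8.66 under AngII. Acadsb rose in wild type (0.97 ± 0.16, adjusted p = 0.000271) and TK mice (1.15 ± 0.16, adjusted p = 0.000278). Each AngII array lay above each sham array. Acadsb in C57Bl/6J wild type read 8.88, 8.47 and 8.89 in sham and 8.41, 8.67 and 8.91 under AngII. Acadsb in KO mice read 8.62, 8.63 and 8.29 in sham and 8.93, 8.66 and 9.37 under AngII. Acadsb stood at -0.09 ± 0.19, adjusted p = 0.816 in wild type and 0.47 ± 0.19, adjusted p = 0.167 in KO mice.

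Each of the 8 members that fell in C57Bl/6J wild type also fell in Balb/C wild type, where they made up 36.4% of the 22. With the common median Acads, Hadha and Ivd fell in both, Crat only in Balb/C, and Ech1, Echs1, Pcca and Pccb in neither. The direction of Pccb was not settled, as given above. The 9 that fell in TK mice all fell in Balb/C wild type (40.9% of 22). As 22 of the 32 members fell in Balb/C wild type, large overlaps would be found for most sets of members, and neither overlap was tested. The 3 that rose in Balb/C wild type were 60% of the 5 that rose in TK. On the chosen probes Crat and Acads were the members called lower in all 4 AngII comparisons. Their other probes did not fall in each of these, as given above. With the common median both lost their calls in KO and TK mice, and Crat also lost that in C57Bl/6J wild type. That Crat call was lost in 5 of 6 runs without 1 array. Over the 12 comparisons, on the chosen probes, Crat was called in 7, Acads and Ivd in 5, Decr1 and Acat1 in 4, and 5 members (Fabp3, Acot13, Cpt1b, Mlycd and Acadl) in 0. The calls of Acads, Hadha and Ivd in C57Bl/6J wild type, of Acaa2, Acads, Acadsb, Acadvl, Acat1, Crat, Decr1, Hadha, Hadhb, Ivd and Slc27a1 in Balb/C wild type, and of Acadsb and Hadhb in TK mice held under all 11 alternative settings and in all 6 runs without 1 array. The TK count depended on single arrays. It was 3 without TK AngII replicate 3, 7 without TK AngII replicate 2, 8 and 6 without TK sham replicates 2 and 3, against 14 with all arrays. Over all genes these runs called 721, 968, 993 and 769, against 1422 with all arrays. The C57Bl/6J wild type count of 8 was 4 without AngII replicate 1 or sham replicate 2 and 5 without AngII replicate 2 or sham replicates 1 or 3, and the KO count of 2 was 0 without AngII or sham replicate 3 and 1 without AngII replicate 2 or sham replicates 1 or 2. Over all genes the runs called 475 to 716 in C57Bl/6J wild type and 56 to 220 in KO mice, against 892 and 422.

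The next question was whether Bmx deficiency changed the pathway. In sham mice 0 members and 0 of all genes (0%) were called in either strain with limma. At an unadjusted p below 0.05 there were 0 members of 32 in C57Bl/6J and 1 in Balb/C, against 6.6% and 11% of all genes. Groups did not overlap for 0 members on the higher and 2 on the lower side in C57Bl/6J (5.61% and 5.42% of all genes) and for 3 and 4 in Balb/C (6.88% and 10.3%). The member median was -0.08 in C57Bl/6J and -0.02 in Balb/C.

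Under AngII, Balb/C TK mice had higher levels than wild type mice for 11 of 32 members and lower levels for 0, where 4.14% and 6.61% of all genes were called, 10.8% in all. The member median was 0.38 and the all-gene median 0.00. The largest was Acaa2 (1.33 ± 0.24, adjusted p = 0.00242), followed by Acat1 (0.99 ± 0.20, adjusted p = 0.00612), Eci1 (0.96 ± 0.20, adjusted p = 0.00611), Decr1 (0.94 ± 0.17, adjusted p = 0.00204) and Etfb (0.94 ± 0.17, adjusted p = 0.00242). Slc27a1 (0.83 ± 0.20, adjusted p = 0.0159), Hsd17b10 (0.79 ± 0.19, adjusted p = 0.0147), Ech1 (0.74 ± 0.15, adjusted p = 0.00614), Slc25a20 (0.66 ± 0.17, adjusted p = 0.0226), Ivd (0.45 ± 0.14, adjusted p = 0.0472) and Crat (0.44 ± 0.13, adjusted p = 0.0359) completed the set. The array values given above show the TK arrays over the wild type arrays for each of these except Slc27a1, whose lowest TK array (7.23) lay below the highest wild type array (7.28). These wild type AngII arrays are also the ones compared with sham above. Groups did not overlap for 14 members, all on the higher side, where 13.8% of all genes were higher and 16.1% lower in this way.

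The calls of Acaa2, Acat1, Decr1, Ech1, Eci1 and Etfb in this comparison held under all 11 settings and all 6 runs without 1 array. The count was 17 without wild type AngII replicate 1, 6 and 7 without wild type replicates 2 and 3, and 6 and 7 without TK replicates 1 and 2. Over all genes these runs called 1623, 445, 600, 450 and 637, against 1067 with all arrays. Fibroblast markers were lower in TK under AngII for 8 of 13 and higher for 1, hypertrophy markers lower for 5 of 10 and macrophage markers lower for 3 of 11, while 1 of 13 cardiomyocyte markers was higher. In this comparison 6.61% of all genes were lower and 4.14% higher. Of all calls 38.5% were higher; this share was 4.71% of 2040 with the common median and 51% of 1250 with the median of the kept probes (a setting chosen after seeing the data). The member median minus that of all genes was 0.38 with quantiles and 0.45 with the common median. The count of 11 was 6 with the common median and 17 with the median of the kept probes.

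The difference of the AngII responses, TK minus wild type, tests the same question against each genotype's own sham arrays. It passed for Crat (0.80 ± 0.18, adjusted p = 0.0329) and Decr1 (1.00 ± 0.23, adjusted p = 0.0391), higher in both, where 0.575% of all genes were called higher and 1.39% lower, 1.97% in all. The member median was 0.38 against 0.01 for all genes, but with the common median it was -0.05 against -0.40, so that its sign flips while its distance of 0.37 from all genes was 0.35. Acaa2 stood at 0.88 ± 0.34, adjusted p = 0.225, Ivd at 0.73 ± 0.20, adjusted p = 0.0715 and Etfb at 0.72 ± 0.24, adjusted p = 0.145. Both calls depended on the scaling and the arrays used. With the common median Crat stood at 0.31, adjusted p = 0.418, and Decr1 at 0.49, adjusted p = 0.253. The call of Crat was lost in 3 of 10 settings and 9 of 12 runs without 1 array, and that of Decr1 in 4 and 8. The count was 7 without wild type AngII replicate 1, 1 without TK sham replicate 3 or wild type sham replicates 2 or 3, 3 without TK AngII replicate 3, and 0 in the other 7 runs. Over all genes the 12 runs called 71 to 453, against 195 with all arrays.

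The AngII response was less negative or more positive in TK than in wild type for 30 of 32 members, and across the members the 2 responses correlated at r = 0.91 (rho = 0.90), over arrays that the comparisons do not share; with the common median the median of these differences turns to -0.05, as above. The responses of Hadha differed by 0.36 ± 0.41, those of Hadhb by 0.28 ± 0.22 and those of Acadsb by 0.19 ± 0.23, none called. The members share arrays and normalization, so this is a description. In C57Bl/6J the KO response lay above that of wild type for 26 of 32, with r = 0.54 (rho = 0.71).

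**Figure D4:**
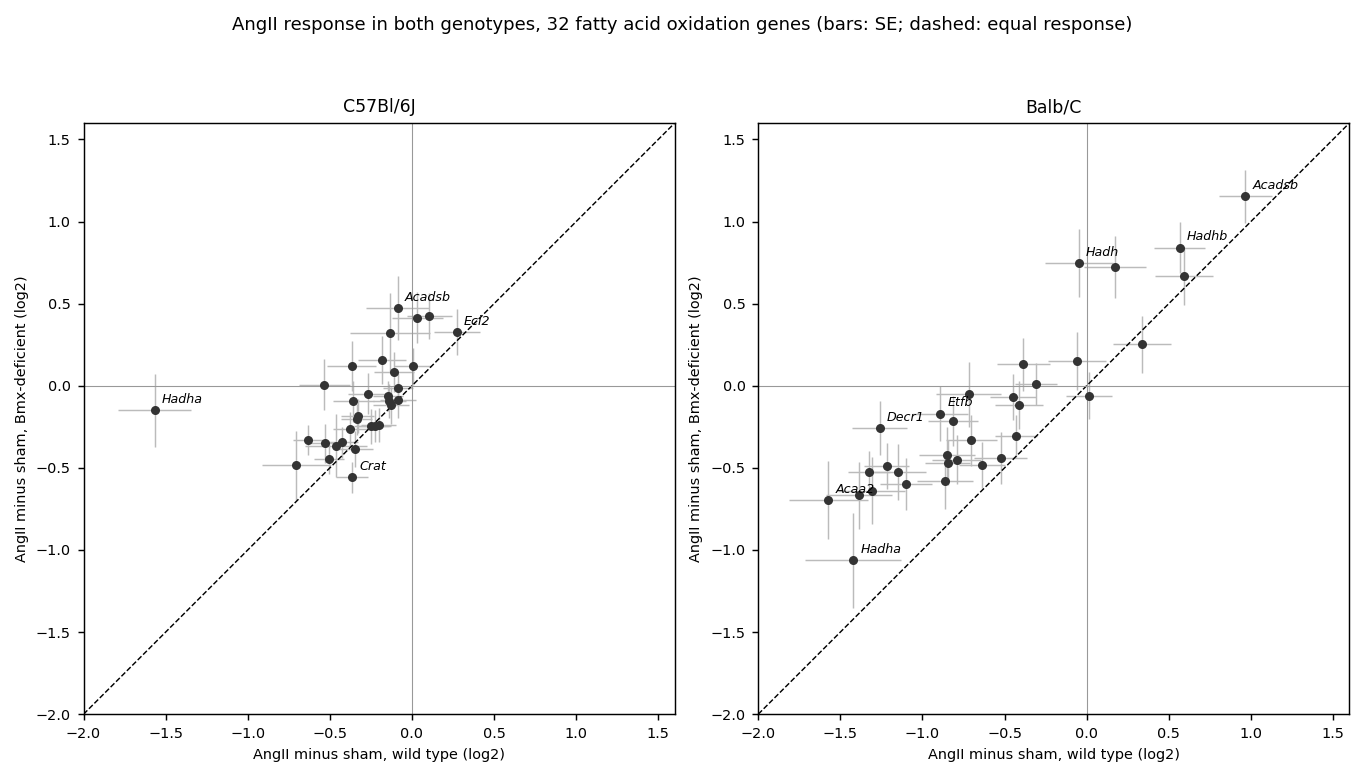
AngII response in wild type (x axis) against Bmx-deficient mice (y axis), both as log2 differences with SE bars, for 32 genes in C57Bl/6J and Balb/C, with the dashed line at equal response. In Balb/C 30 points lie above the line and in C57Bl/6J 26 do; with the common median the median vertical distance from the line in Balb/C turns from 0.38 to -0.05.

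In C57Bl/6J 0 members were called between KO and wild type mice under AngII, where 0.171% of all genes were (0.0605% higher and 0.111% lower), and 3 of 32 members had an unadjusted p below 0.05, against 10.1% of all genes. The largest was Hadha, whose KO arrays all lay above the wild type arrays (1.12 ± 0.22, adjusted p = 0.0939); it was called with a trended prior and with the common median. The difference of responses was called for 0 members with limma, where 0.121% of all genes were called (0.0504% higher and 0.0706% lower). At an unadjusted p below 0.05 there were 4 of 32, against 9.1% of all genes, and Hadha stood at 1.42 ± 0.32, adjusted p = 0.201.

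Responses were also compared between strains, C57Bl/6J minus Balb/C, in a fit over all 24 arrays normalized together. In wild type 10 members were higher, that is fell less or not at all in C57Bl/6J, and 1 was lower, where 7.07% and 8.36% of all genes were called, 15.4% in all. They were Acaa2 (1.09 ± 0.31, adjusted p = 0.0218), Crat (0.98 ± 0.15, adjusted p = 0.000214), Acadvl (0.97 ± 0.20, adjusted p = 0.00318), Acat1 (0.93 ± 0.29, adjusted p = 0.0339), Decr1 (0.91 ± 0.20, adjusted p = 0.00431), Etfdh (0.90 ± 0.21, adjusted p = 0.0071), Etfb (0.70 ± 0.20, adjusted p = 0.0243), Ivd (0.64 ± 0.16, adjusted p = 0.00976), Acads (0.62 ± 0.19, adjusted p = 0.0266) and Hsd17b4 (0.53 ± 0.17, adjusted p = 0.0354), with Acadsb on the lower side (-1.04 ± 0.26, adjusted p = 0.00951). Of these the call of Acadsb alone held with the common median (-1.59). The 10 higher calls were all lost there, with values from -0.052 for Hsd17b4, 0.026 for Ivd and 0.042 for Acads to 0.50 for Acaa2 and adjusted p from 0.203 for Crat to 0.952 for Ivd. The 5 members called with the common median were all lower, namely Acadsb, Acot13, Eci2, Hadhb and Hsd17b10. Strain and signal table coincide and cannot be told apart. The member median was 0.46 against 0.03 for all genes, and with the common median -0.07 against -0.41, so its sign flips; 45.8% of all calls were higher with quantiles and 1.68% of 2440 with the common median. The count of 11 was 6 without Balb/C wild type sham replicate 2 and 7 without C57Bl/6J wild type AngII replicate 3. Over all genes these runs called 1336 and 1265, against 1530 with all arrays. In deficient mice 0 members were called with limma, where 1.35% of all genes were (0.504% higher and 0.847% lower), and 8 of 32 members had an unadjusted p below 0.05, against 17.3% of all genes.

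Other genes of fatty acid use were taken from lists written for the pathway. Over all genes 20.8% fell and 18.1% rose in Balb/C wild type, and 6.57% and 7.76% in TK. In C57Bl/6J wild type the shares were 4.82% and 4.17%, and in KO mice 1.92% and 2.34%. Of 36 kept genes of acyl-CoA handling outside the members, 22 fell and 3 rose in Balb/C wild type (median -0.55), 9 fell and 1 rose in TK, 8 fell and 1 rose in C57Bl/6J wild type and 2 fell in KO mice. Acacb, the acetyl-CoA carboxylase that makes the inhibitor of Cpt1b, fell in Balb/C wild type (-1.16 ± 0.14, adjusted p = 1.79e-05), as did Slc22a5, the carnitine importer (-1.03 ± 0.13, adjusted p = 2.93e-05), Slc25a29 (-1.15 ± 0.17, adjusted p = 8.84e-05) and Abcd3, a peroxisomal transporter (-0.98 ± 0.14, adjusted p = 0.00011). In TK the smallest p-values were those of Mccc1, a leucine breakdown enzyme that rose (1.27 ± 0.17, adjusted p = 0.00024), Acacb (-0.64 ± 0.14, adjusted p = 0.0066), Acox3 (-0.65 ± 0.14, adjusted p = 0.00785) and Acot1 (-1.29 ± 0.29, adjusted p = 0.00867). In C57Bl/6J wild type Gcdh (-0.74 ± 0.13, adjusted p = 0.00492), Bckdha (-0.67 ± 0.12, adjusted p = 0.00506) and Dbt (-0.65 ± 0.15, adjusted p = 0.0192), enzymes of amino acid breakdown, fell, and Acsl4, an arachidonate-preferring synthetase, rose (0.62 ± 0.15, adjusted p = 0.0263). Under AngII 5 were higher in TK than in wild type, among them Bckdha (0.65 ± 0.16, adjusted p = 0.0187) and Acot2 (0.79 ± 0.20, adjusted p = 0.0214). In that comparison 4.14% of all genes were higher.

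Known targets of PPAR alpha outside the members, 3 of which are also in the list above, fell for 10 of 13 in Balb/C wild type (median -1.02), 7 in TK (-0.46), 4 in C57Bl/6J wild type (-0.33) and 0 in KO mice (-0.13), and 0 rose. They included Acot1 (-1.91 ± 0.29, adjusted p = 0.000139) and Acot2 (-1.37 ± 0.20, adjusted p = 0.000114), acyl-CoA thioesterases, and Plin5, a lipid droplet protein (-1.15 ± 0.17, adjusted p = 0.000113). Pdk4, the kinase that inhibits pyruvate dehydrogenase, fell in TK (-2.23 ± 0.48, adjusted p = 0.00671) and in wild type (-1.89 ± 0.48, adjusted p = 0.00609), and the mitochondrial carrier Ucp3 fell in C57Bl/6J wild type (-1.94 ± 0.38, adjusted p = 0.00867). Of 24 regulators 11 fell and 1 rose in Balb/C wild type, 1 fell in TK and 0 were called in C57Bl/6J. The shares of all genes that fell were 20.8% in Balb/C wild type, 6.57% in TK, 4.82% in C57Bl/6J wild type and 1.92% in KO. Those that rose were 18.1%, 7.76%, 4.17% and 2.34%. Ppargc1b, the coactivator PGC-1 beta, fell in Balb/C wild type (-1.21 ± 0.14, adjusted p = 1.23e-05) and was higher in TK than wild type mice under AngII (0.85 ± 0.14, adjusted p = 0.00117), and its response differed between genotypes (1.00 ± 0.19, adjusted p = 0.0164). Rxrg, a partner receptor of PPAR, gave the same signs (-1.25 ± 0.17, adjusted p = 4.7e-05, 0.86 ± 0.17, adjusted p = 0.0042 and 0.97 ± 0.24, adjusted p = 0.0478). Prkaa2, an AMPK catalytic subunit, fell in wild type (-0.95 ± 0.14, adjusted p = 8.02e-05) and TK (-0.63 ± 0.14, adjusted p = 0.00657), and Lpin1 fell in wild type (-0.78 ± 0.15, adjusted p = 0.000715). Counts of these lists and single genes outside the members are given with quantiles only. The common median moved the all-gene median in Balb/C wild type by 0.41. For the Balb/C difference of responses, 29.2% of 195 calls over all genes were higher with quantiles, against 0.42% of 715 with the common median.

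Complex I and citric acid cycle genes, the mitochondrial lists nearest to the pathway, are given beside it with no test between lists and with counts from quantiles only. Over all genes 20.8% fell and 18.1% rose in Balb/C wild type, and 6.57% and 7.76% in TK. In C57Bl/6J 8.99% of all genes were called in wild type and 4.25% in KO. In Balb/C wild type, of 34 complex I genes 4 fell and 3 rose (median -0.17), against 4 that rose and 0 that fell in TK (0.06) and 0 called in C57Bl/6J. Ndufb9 (1.34 ± 0.31, adjusted p = 0.003) and Ndufb5 (0.94 ± 0.24, adjusted p = 0.00577) rose, and Ndufa3 (-0.81 ± 0.18, adjusted p = 0.00256) and Ndufv3 (-0.64 ± 0.15, adjusted p = 0.00274) fell. Of 18 citric acid cycle genes 8 fell and 4 rose (median -0.35), among them Ogdh (-1.07 ± 0.13, adjusted p = 2.06e-05), Dlst (-0.96 ± 0.13, adjusted p = 4.53e-05) and Dlat (-0.96 ± 0.14, adjusted p = 0.00012), which fell, and Sdhd (1.40 ± 0.20, adjusted p = 7.56e-05), which rose. Under AngII all 34 complex I genes were above 0 in TK minus wild type, with 4 called and a median of 0.36, next to 0.38 for the fatty acid oxidation members. In this comparison 4.14% of all genes were called higher. The all-gene median was -0.004 with quantiles and -0.27 with the common median. Array medians of complex I ran from -0.42 to 0.06 in wild type AngII and from 0.14 to 0.21 in TK AngII. In sham they ran from -0.17 to 0.09 in wild type and from -0.25 to 0.33 in TK. The complex I genes share arrays and normalization, so the common sign is a description.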

How the data were processed

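Left ventricle RNA was hybridised to 24 one-colour Illumina mouse bead arrays. Per the labels' protocols, TRIsure extraction was followed by NucleoSpin RNA II purification, and the RNA was amplified to biotin-labelled cRNA. The deposited tables, 1 per strain, hold bead intensity that was not normalized, per the file headers. They also hold a detection p-value per probe made by the authors. In 313 detection p cells on 11 arrays the entry was not a possible p-value, and it was read as 1. The deposited series values on the log2 scale were used as an alternative.

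Within each strain, intensities were background-corrected with detection p-values, given an offset of 16, quantile-normalized and set to log2 (neqc, limma 3.58.1, R 4.3.3). Probes with a detection p-value below 0.05 on at least 3 arrays in both tables were kept, and 1 probe per gene, that with the highest mean, was used. Group means were fitted with lmFit and eBayes, without a replicate block, over the 4 groups of a strain, or over 8 groups for strain differences, and p-values were adjusted by Benjamini-Hochberg over 9921 genes. Gene names came from the platform annotation. The procedure was tested on simulated data. The replicate numbers did not pair the arrays (median correlation of deviations -0.03 in C57Bl/6J and -0.01 in Balb/C, over 18 pairs each). The members and gene lists were chosen with earlier results of these data known. Named genes were members called in any comparison and a fixed set of pathway steps, and for other lists up to 4 called genes with the smallest p-values per comparison. Alternatives covered background, scaling, filters, probe choice, the prior, the samples in the fit and single arrays left out. No array was left out of the values given.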

Additional observations from a re-analysis of the deposited data

Results flagged for a closer look

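In Balb/C the AngII response differed between genotypes, by the interaction term, for Crat (0.80) and Decr1 (1.00), TK minus wild type. With a common median both calls were lost (0.31, adjusted p = 0.418 and 0.49, adjusted p = 0.253, limma).

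Between strains, in wild type mice and as C57Bl/6J minus Balb/C, the response differed for Acaa2 (1.09), Acads (0.62), Acadsb (-1.04), Acadvl (0.97), Acat1 (0.93), Crat (0.98), Decr1 (0.91), Etfb (0.70), Etfdh (0.90), Hsd17b4 (0.53) and Ivd (0.64). With a common median only the call of Acadsb among these held (-1.59), and the others ran from -0.052 for Hsd17b4 to 0.50 for Acaa2, none called. Strain and signal table cannot be told apart in these values.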

How the results depend on the processing

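Scaling to a common median gave 3 calls in C57Bl/6J wild type, 0 in KO, 14 in Balb/C wild type, 3 in TK, 6 between genotypes under AngII in Balb/C, 0 for the Balb/C difference of responses, 5 for the wild type strain difference and 1 (Hadha) for C57Bl/6J under AngII. In the same order, quantiles gave 892, 422, 3867, 1422, 1067, 195, 1530 and 17 calls over all genes. The common median gave 458, 322, 3916, 647, 2040, 715, 2440 and 15. Cpt2 (0.012), Echs1 (0.064) and Acaa1a (0.076) in Balb/C wild type and Hsd17b4 (-0.052) between strains changed sign. The member median became -0.03 in KO, 0.18 in C57Bl/6J under AngII, 0.23 for the C57Bl/6J difference of responses, -0.20 in Balb/C wild type, 0.22 in Balb/C sham, 0.18 in Balb/C under AngII, -0.05 for the Balb/C difference of responses and -0.07 between strains. Scaling to the median of the kept probes, chosen after seeing the data, gave 17 calls and a median of 0.51 in Balb/C under AngII, 1 call for the Balb/C difference of responses and a median of -0.18 in KO. Over all genes it called 1250 in Balb/C under AngII and 193 for the Balb/C difference of responses.

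No background correction, a trended prior and the deposited series values each gave 13 calls in C57Bl/6J wild type and 7 in KO, and the trended prior 1 (Hadha) in C57Bl/6J under AngII. Fitting only the groups compared gave 4 and 1 calls in C57Bl/6J wild type and KO and 7 in Balb/C under AngII. A stricter filter gave 5 and all detected probes 4 in KO; no filter gave 8 in TK and 1 for the Balb/C difference of responses, and all detected probes 0 for the latter. All-gene totals under these settings are not given. A change in these counts is therefore not separated from a change in calls over all genes. The causes were not tested.

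Leaving out 1 array gave 4 to 11 calls in C57Bl/6J wild type (median -0.35 to -0.21), 0 to 2 in KO (-0.16 to -0.09), 22 to 25 in Balb/C wild type (-0.82 to -0.62), 3 to 11 in TK (-0.34 to -0.19), 6 to 17 in Balb/C under AngII (0.32 to 0.49), 0 to 7 for the Balb/C difference of responses (0.34 to 0.51), 6 to 15 between strains in wild type (0.34 to 0.51) and 0 to 1 between strains in deficient mice. Calls over all genes in these runs, in the same order, were 475 to 716, 56 to 220, 3084 to 3476 and 721 to 1141. For the last 4 comparisons they were 445 to 1623, 71 to 453, 1096 to 1456 and 38 to 208. With the replicate number as a block there were 7 calls in C57Bl/6J wild type, 2 in KO, 25 in Balb/C wild type, 13 in TK, 10 in Balb/C under AngII and 2 for the difference of responses. All-gene totals with the block are not given. Choosing the probe within each table was not run for strain differences, and fitting only the groups compared was not run for differences of responses. Members near background, such as Hadh, are limited by signal.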
